A study of Mus musculus with 2 samples.

Results

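Auts2, Fhit, Rad51b and Sox5 are protein-coding genes that each span over 500 kb of the mouse genome, and their transcripts were less frequent in splenic CD8 T cells of DHEA-treated mice than in those of CTRL mice. The 4 genes were taken by name from the 33696 genes of both count tables because earlier results of these data had shown them lower with DHEA. Their overall difference between the libraries is therefore a description of what chose them, and it is given with no test. Splits of that difference by cluster, depth or processing describe the same contrast and add no support to it. All 4 were found in both tables.

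The cells came from spleens of C57BL/6 mice with a WT genotype, purified as CD8+ T cells with magnetic beads. In the DHEA group, mice received dehydroepiandrosterone, an androgen precursor used to model polycystic ovary syndrome, subcutaneously at 40 mg/kg in 20 µL sesame oil every day for 21 days. In the CTRL group, mice received 20 µL sesame oil on the same days. Cells were pooled before droplet 3' RNA sequencing, and the sources used here do not give sex, age or the number of mice per pool. With 1 library per group, the differences below could not be set against replicates. Intervals are exact, at the 95% level, and cover counting error only.

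AUTS2 is a nuclear protein that joins variant Polycomb complexes and is best known from brain development. FHIT is a small hydrolase of dinucleoside polyphosphates, and its gene lies across a chromosomal fragile site that is often broken in tumours. RAD51B takes part in the repair of broken DNA by homologous recombination. SOX5 is a DNA-binding protein of the SOXD group with roles in cartilage, in neurons and in some lymphocytes. Very long genes take long to transcribe, and most of what is transcribed is intron.

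In the GENCODE M21 annotation of the GRCm38 assembly, Fhit (ENSMUSG00000060579, chromosome 14, minus strand) spanned 1612 kb. Auts2 (ENSMUSG00000029673, chromosome 5, minus strand) spanned 1106 kb and Sox5 (ENSMUSG00000041540, chromosome 6, minus strand) 954 kb. Rad51b (ENSMUSG00000059060, chromosome 12, plus strand) was the shortest of the 4 with 517 kb. Among 21409 protein-coding genes, whose median span was 17.6 kb, they ranked 11 (Fhit), 39 (Auts2), 62 (Sox5) and 211 (Rad51b) from the longest. Annotated exons covered 0.0925% of the span of Fhit, 0.726% of Rad51b, 1.51% of Sox5 and 2.07% of Auts2. The sources used here do not say whether reads within introns were counted. Genes annotated on the opposite strand or inside an intron of a member had few UMIs, the highest being Sox5os3 with 14 in DHEA and 17 in CTRL. How counting treated strand is not stated there either.

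Promoter windows that RefSeq gives for Fhit, Rad51b and Sox5 (GRCm38.p6, 250 bases before to 50 after the start, written 5′ to 3′ on the gene's strand) are shown because these genes were lower together in the DHEA library. Capitals mark AGAACA, the core of the response element shared by androgen and glucocorticoid receptors, the CCAAT box and the GC box GGGCGG, each on either strand. RefSeq lists 2 windows each for Fhit and Rad51b, of which the one farther upstream is shown.
Fhit, chr14:11161986-11162285, minus strand: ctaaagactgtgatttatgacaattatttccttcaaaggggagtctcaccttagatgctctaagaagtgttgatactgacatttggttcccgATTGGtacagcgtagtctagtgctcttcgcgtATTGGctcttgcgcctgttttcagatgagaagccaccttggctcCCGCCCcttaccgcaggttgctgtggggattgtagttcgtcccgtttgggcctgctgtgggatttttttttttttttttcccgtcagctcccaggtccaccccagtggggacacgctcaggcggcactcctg
Rad51b, chr12:79297032-79297331, plus strand: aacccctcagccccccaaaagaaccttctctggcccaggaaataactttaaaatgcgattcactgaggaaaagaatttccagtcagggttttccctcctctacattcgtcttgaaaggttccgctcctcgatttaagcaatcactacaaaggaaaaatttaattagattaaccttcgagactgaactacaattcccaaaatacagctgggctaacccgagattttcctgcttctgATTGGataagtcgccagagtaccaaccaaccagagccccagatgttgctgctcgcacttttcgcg
Sox5, chr6:143947057-143947356, minus strand: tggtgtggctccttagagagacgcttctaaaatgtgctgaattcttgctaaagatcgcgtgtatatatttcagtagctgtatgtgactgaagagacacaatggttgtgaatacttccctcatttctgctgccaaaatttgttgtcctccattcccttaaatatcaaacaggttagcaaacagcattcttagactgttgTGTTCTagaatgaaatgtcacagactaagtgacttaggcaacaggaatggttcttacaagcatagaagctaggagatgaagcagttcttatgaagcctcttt
The Fhit window shown held 2 CCAAT boxes and 1 GC box, the Rad51b window 1 CCAAT box, and the Sox5 window 1 AGAACA on its opposite strand. Of 32851 promoter windows of the same length, 37.4% held CCAAT, 35.7% GGGCGG and 18.97% AGAACA. The full palindrome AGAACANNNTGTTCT, which contains AGAACA, was in 0.00913% of the windows and in none of those shown. CG dinucleotides numbered 12 in the Fhit window, 10 in that of Rad51b and 3 in that of Sox5, against a median of 7. The other Fhit window held 1 GC box, 7 CG dinucleotides and no CCAAT box. A match is a run of letters and not a measured site.

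The cells analysed had 200 genes or more and a mitochondrial (mt-) share below 10% of UMIs. There were 11671 in DHEA and 9210 in CTRL, with median depths of 4224 and 5530.5 UMIs and median mitochondrial shares of 2.03% and 2.51%. The libraries shared 51 barcodes, which were kept. Cd8a had 402 CPM (UMIs of the gene per 1000000 UMIs of the summed cells) in DHEA and 337 CPM in CTRL, Cd8b1 1214 and 980 CPM, and Cd3e 695 and 657 CPM. Cd4 had 4 UMIs in DHEA and 7 in CTRL. Markers of B cells summed to 287 CPM in DHEA and 267 CPM in CTRL, those of myeloid cells to 68.5 and 85.0 CPM, and those of NK cells to 20.3 and 26.2 CPM. Neutrophil markers summed to 8.83 CPM in DHEA and 0.0390 CPM in CTRL, memory markers to 3553 CPM in DHEA and 2067 CPM in CTRL, and effector markers to 517 CPM in DHEA and 213 CPM in CTRL. Their part in the levels below was not tested. Cells were set apart by the share of UMIs from 90 ribosomal protein (Rpl/Rps) genes. At least 15% was found in 11089 DHEA and 8903 CTRL cells, called Rpl/Rps-rich below. Under 15% was found in 582 DHEA cells (4.99%) and 307 CTRL cells (3.33%), called Rpl/Rps-poor. Their median mitochondrial shares were 5.39% in DHEA and 6.24% in CTRL, and their median depths 1619 and 2098 UMIs. In Rpl/Rps-poor cells, NK markers summed to 142 CPM in DHEA and 374 CPM in CTRL, against 17.7 and 21.1 CPM in Rpl/Rps-rich cells. Neutrophil markers there summed to 408 CPM in DHEA and 0 CPM in CTRL. Values of Rpl/Rps-poor cells may thus not be those of CD8 T cells alone, and the part of other cell types was not tested.

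All 4 genes were lower in the DHEA library over all filtered cells, Sox5 most and Rad51b least. Auts2 had 2177 UMIs in DHEA and 3495 in CTRL, a level of 41.5 CPM (39.8 to 43.3) in DHEA and 68.2 CPM (66.0 to 70.5) in CTRL. Fhit had 2437 UMIs in DHEA and 4232 in CTRL, or 46.5 CPM (44.6 to 48.4) in DHEA and 82.6 CPM (80.2 to 85.1) in CTRL. For both genes the interval in DHEA lies well below that in CTRL. Rad51b had 440 UMIs in DHEA and 579 in CTRL, or 8.39 CPM (7.62 to 9.21) in DHEA and 11.3 CPM (10.4 to 12.3) in CTRL. Sox5 had 155 UMIs in DHEA and 469 in CTRL, or 2.96 CPM (2.51 to 3.46) in DHEA and 9.16 CPM (8.35 to 10.0) in CTRL. The log2 ratio of DHEA over CTRL was -1.63 for Sox5 (-1.90 to -1.37), -0.83 for Fhit (-0.90 to -0.76), -0.72 for Auts2 (-0.79 to -0.64) and -0.43 for Rad51b (-0.61 to -0.25).

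Of the 4 genes, 3 were at least 1.5-fold lower, Rad51b being the exception, beside 152 of 10652 genes with at least 200 UMIs (1.43%). In the other direction, 185 genes (1.74%) were at least 1.5-fold higher. Since the genes were chosen from this contrast, the first count carries no further weight. Among all 10652 genes ranked from the lowest log2 ratio, Sox5 was at place 4, Fhit at 47, Auts2 at 79 and Rad51b at 319.

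**Figure D1:**
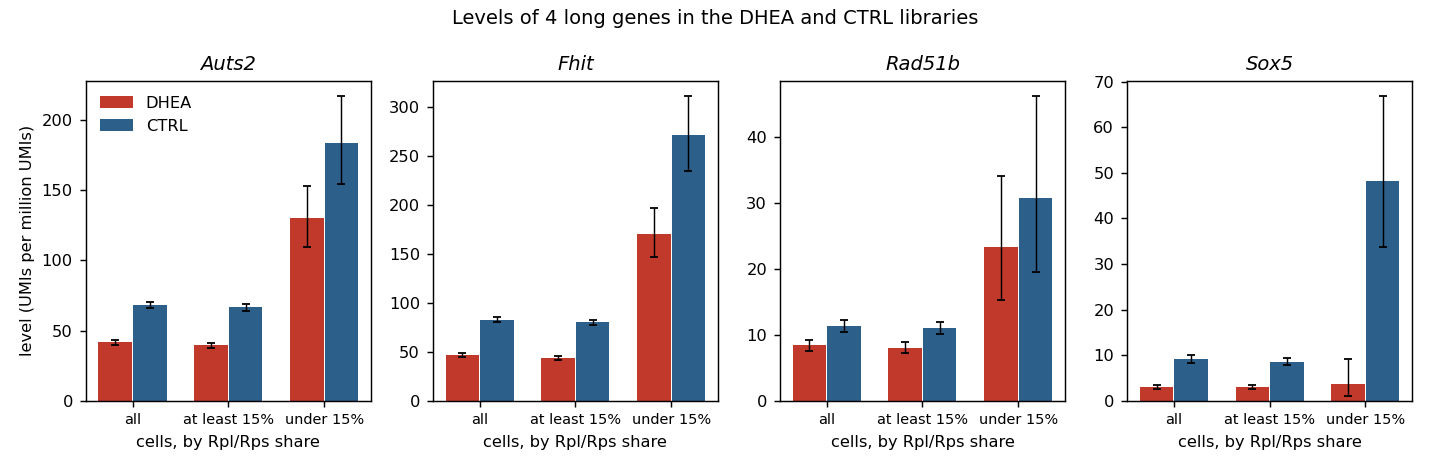
Levels of the 4 genes in CPM (vertical axis, own scale per gene) in all filtered cells, in cells with at least 15% Rpl/Rps UMIs and in cells under 15%, for the DHEA library (red, left) and the CTRL library (blue, right). Bars are levels of the summed counts and whiskers exact 95% Poisson intervals. DHEA bars are lower in all 12 pairs, and the whiskers of Rad51b in the under-15% cells overlap widely.

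The level of each gene in CPM was higher in Rpl/Rps-poor cells than in Rpl/Rps-rich cells of the same library, with Sox5 in DHEA as the one gene whose interval included 0. In Rpl/Rps-poor cells, Auts2 stood at 130 CPM (110 to 153) in DHEA and 184 CPM (154 to 217) in CTRL. In Rpl/Rps-rich cells it stood at 39.6 CPM in DHEA and 66.5 CPM in CTRL. The log2 ratio of poor over rich cells was 1.72 (1.46 to 1.96) in DHEA and 1.46 (1.21 to 1.71) in CTRL. For Fhit, the Rpl/Rps-poor cells had 170 CPM (147 to 196) in DHEA and 271 CPM (235 to 311) in CTRL, and the Rpl/Rps-rich cells 43.8 and 79.8 CPM. Its log2 ratio of poor over rich cells was 1.96 in DHEA, the highest of the 4 genes there, and 1.76 in CTRL.

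Rad51b followed with 23.3 CPM (15.2 to 34.2) in DHEA and 30.8 CPM (19.5 to 46.3) in CTRL in Rpl/Rps-poor cells, a log2 ratio over the rich cells of 1.53 in DHEA and 1.48 in CTRL. These levels rest on 26 UMIs in DHEA and 23 in CTRL. Sox5 stood apart. Its Rpl/Rps-poor cells had 3.59 CPM (0.977 to 9.18) in DHEA and 48.3 CPM (33.8 to 66.8) in CTRL, from 4 UMIs in 4 cells and 36 UMIs in 17 cells. Its log2 ratio of poor over rich cells was 0.29 (-1.61 to 1.67) in DHEA and 2.49 (1.96 to 2.98) in CTRL.

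Higher levels in Rpl/Rps-poor cells were common to genes of this size. The 52 other measured genes of at least 500 kb had a median log2 ratio of poor over rich cells of 1.53 in DHEA and 1.35 in CTRL, and 50 of them were above 0 in each library. Over all measured genes the median was 0.67 in DHEA and 0.64 in CTRL. Of these genes, 7819 of 10652 were above 0 in DHEA and 7797 of 10650 in CTRL. A CPM rises for other genes where ribosomal protein UMIs are few, and with the total of all but mt- and Rpl/Rps genes as the denominator the ratio for Fhit was 1.52 in DHEA and 1.32 in CTRL. With TMM factors it was 1.06 in DHEA and 0.92 in CTRL.

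Between the libraries, the Rpl/Rps-rich cells gave log2 ratios of DHEA over CTRL close to those of all cells: -0.75 for Auts2, -0.87 for Fhit, -0.45 for Rad51b and -1.54 for Sox5. At least 1.5-fold lower there were 3 of the 4 genes, beside 167 of 10588 genes (1.58%), with 1.68% at least 1.5-fold higher. In Rpl/Rps-poor cells the ratios were -0.50 (-0.84 to -0.15) for Auts2 and -0.67 (-0.96 to -0.38) for Fhit. There the ratio for Rad51b was -0.40 (-1.27 to 0.47), which includes 0, and that for Sox5 was -3.75 (-5.70 to -2.27). In these cells only Auts2 and Fhit reached 200 UMIs, and Fhit was past 1.5-fold, beside 13 of 1917 genes (0.678%), with 0.782% at least 1.5-fold higher.

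The value for Auts2 in Rpl/Rps-poor cells differed with the mitochondrial share. In Rpl/Rps-poor cells under 5% mitochondrial UMIs, Auts2 had 80 UMIs over 258 DHEA cells and 29 over 101 CTRL cells, or 138 CPM in DHEA and 96.3 CPM in CTRL, a log2 ratio of 0.52 (-0.11 to 1.19). In those of 5 to 10%, it had 65 UMIs in 324 DHEA cells and 108 in 206 CTRL cells, or 121 CPM in DHEA and 243 CPM in CTRL, where the interval of the log2 ratio was -1.47 to -0.54. Fhit was at -0.68 in both subsets. In Rpl/Rps-rich cells under 5%, Auts2 was at -0.75.

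Along the Rpl/Rps share in finer steps, Fhit had its lowest level in the cells of 40% or more, 25.7 CPM in DHEA and 55.7 CPM in CTRL. Its levels were 238 CPM in DHEA and 282 CPM in CTRL in cells under 5%. Just below the limit of 15%, in the cells of 10 to 15%, Fhit had 127 CPM in DHEA and 198 CPM in CTRL. Just above it, in those of 15 to 20%, it had 56.9 CPM in DHEA and 160 CPM in CTRL. Fhit thus dropped more across the limit in DHEA. Auts2 had 66.8 CPM in DHEA and 83.0 CPM in CTRL below the limit, and 40.3 CPM in DHEA and 104 CPM in CTRL above it.

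For Rad51b the levels were 11.1 CPM in DHEA and 50.5 CPM in CTRL below the limit, and 16.5 CPM in DHEA and 19.1 CPM in CTRL above it. Sox5 had 4.45 CPM in DHEA and 65.0 CPM in CTRL below the limit, and 7.34 CPM in DHEA and 71.2 CPM in CTRL above it. High Sox5 levels in the CTRL library thus reached into the Rpl/Rps-rich class, with 11.5 CPM in DHEA and 42.6 CPM in CTRL at 20 to 25%. The CTRL levels rest on 56 UMIs at 15 to 20% and 113 at 20 to 25%. A single Rpl/Rps-rich CTRL cell had 50 Sox5 UMIs, so 1 cell may make up much of a bin. At 40% or more, Sox5 had 0.257 CPM in DHEA (2 UMIs) and 1.52 CPM in CTRL (9 UMIs).

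**Figure D2:**
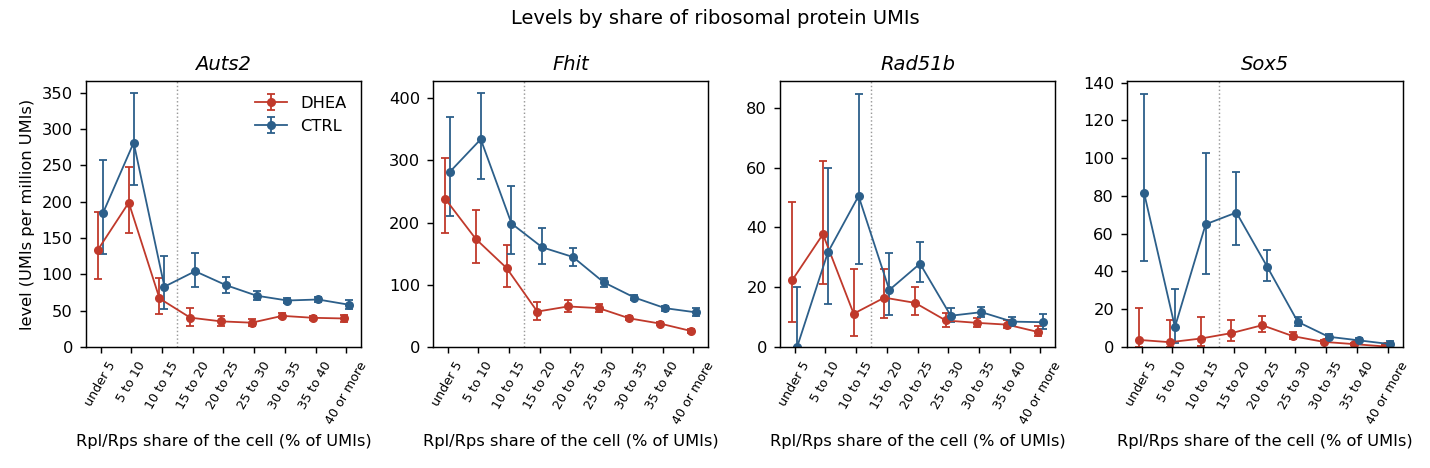
Level of each gene in CPM (vertical axis) in bins of the cell's Rpl/Rps share in percent of UMIs (horizontal axis), DHEA in red and CTRL in blue, with exact 95% Poisson intervals. The dotted line marks 15%. Fhit levels are highest in cells with little Rpl/Rps RNA. Sox5 in CTRL reaches 71.2 CPM (56 UMIs) at 15 to 20%, where DHEA has 7.34 CPM (8 UMIs).

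Leiden clustering without the 4 genes gave 16 clusters, 8 of which had no name from the marker lists. The named ones were 1 naive-like cluster, 3 memory-like clusters (4, 5 and 6), and innate-like, effector-like, interferon-responding and early-activated clusters. Names were given after the leading genes of the clusters had been seen. The naive-like cluster was shallow, with a median of 1834 UMIs in DHEA and 3136 in CTRL. Its naive markers summed to 3997 CPM, less than the 4052 CPM of memory-like cluster 4. They were also below those of unnamed clusters such as 2 (4933 CPM), 3 (5250 CPM) and 7 (6313 CPM). Values of naive-like cells therefore describe the naive-like cluster and not all naive cells. Memory markers summed to 2770 CPM in cluster 4, 5650 CPM in cluster 5 and 5841 CPM in cluster 6, so the memory-like clusters also differed. Over all its cells, the unnamed cluster 14 had the highest sums of myeloid markers, 1085 CPM, and of NK markers, 959 CPM. The next were 90.0 CPM of myeloid markers in the effector-like and 179 CPM of NK markers in the innate-like cluster. Values of cluster 14 may thus not be those of CD8 T cells alone. Levels below are of Rpl/Rps-rich cells. Counts of clusters lower in DHEA split the contrast that chose the genes, so they carry no further weight.

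Auts2 was highest in cluster 7, a cluster of few Rpl/Rps UMIs whose leading genes include Tex14 and Kmt2d, with 178 CPM (138 to 226) in DHEA and 202 CPM (146 to 274) in CTRL. Cluster 2, led by Gria3 and the gut-homing receptor gene Ccr9, came next with 68.8 CPM (63.8 to 74.2) in DHEA and 117 CPM (108 to 126) in CTRL. In the naive-like cluster the gene had 34.0 CPM in DHEA and 56.5 CPM in CTRL. Memory-like cells together had 20.4 CPM (18.3 to 22.7) in DHEA and 50.2 CPM (46.3 to 54.3) in CTRL, a log2 ratio of -1.30. The order of these 4 groups of cells was the same in both libraries, and in CTRL the intervals of naive-like and memory-like cells overlapped.

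Auts2 was low in effector-like cells, with 5.02 CPM (2.59 to 8.76) in DHEA and 20.8 CPM (13.8 to 30.1) in CTRL, and in innate-like cells, with 13.7 CPM (9.42 to 19.2) in DHEA and 21.3 CPM (15.9 to 27.8) in CTRL. These cells differed beyond counting error in DHEA and not in CTRL. Cluster 14 had only 8 Auts2 UMIs in DHEA and 3 in CTRL. Of 15 clusters with at least 20 Auts2 UMIs, 14 were lower in DHEA, and in 10 the interval lay below 0. The exception was cluster 13, led by Hdac9, Alcam and Myb, with 40 UMIs or 45.1 CPM in DHEA and 31 UMIs or 28.0 CPM in CTRL, where the interval of the log2 ratio, -0.03 to 1.41, included 0.

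Fhit was high in cluster 14, led by Il23r, Il1r1 and Blk, with 89.7 CPM (67.2 to 117) in DHEA and 152 CPM (119 to 192) in CTRL. Cluster 13, with 82.3 CPM in DHEA and 143 CPM in CTRL, and the innate-like cells, with 69.3 CPM in DHEA and 128 CPM in CTRL, were close behind, and the intervals of the 3 overlapped within each library. Cluster 7 had the highest level in DHEA, 105 CPM (74.9 to 143), against 86.8 CPM (51.4 to 137) in CTRL. Among 15 clusters with at least 20 Fhit UMIs in Rpl/Rps-rich cells, cluster 7 alone was not lower in DHEA. Its interval of the log2 ratio, -0.56 to 1.16, included 0. These values rest on 157 of its 579 DHEA cells (40 UMIs) and 62 of its 286 CTRL cells (18 UMIs). Over all its cells, Fhit had 163 CPM (141 to 188) in DHEA and 262 CPM (226 to 303) in CTRL. With cells of all shares, all 15 clusters were lower in DHEA.

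Naive-like cells had one of the low Fhit levels, 19.3 CPM (15.7 to 23.6) in DHEA and 47.2 CPM (40.8 to 54.4) in CTRL. The intervals of clusters 6, 11 and 15 overlapped theirs in DHEA, and those of clusters 6, 7, 11, 12 and 15 in CTRL. The log2 ratio was -1.29 in naive-like cells and -0.82 in memory-like cells, where Fhit had 49.2 CPM in DHEA and 86.6 CPM in CTRL. Thinned to 1000 UMIs per cell, the order was the other way, with -0.68 (-1.32 to -0.03) in naive-like cells and -0.97 (-1.31 to -0.63) in memory-like cells. In effector-like cells it had 33.9 CPM in DHEA and 101 CPM in CTRL, a log2 ratio of -1.58. The interval of the ratio lay below 0 in 13 clusters.

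Rad51b was concentrated in the effector-like cluster, whose leading genes include the proliferation genes Pclaf, Birc5 and Ube2c. It had 33.4 CPM (26.5 to 41.6) in DHEA and 93.6 CPM (78.0 to 111) in CTRL there, a log2 ratio of -1.49 (-1.91 to -1.07). Thinned to 1000 UMIs per cell, the ratio was -0.66 and its interval, -2.31 to 1.11, included 0. The next level was that of cluster 14 in DHEA, with 23.7 CPM from 14 UMIs. Of 9 clusters with at least 20 Rad51b UMIs, 7 were lower in DHEA, and in 5 the interval lay below 0. Clusters 1 and 3 were level between the libraries, with log2 ratios of 0.06 (-0.60 to 0.71) and 0.09 (-0.61 to 0.76).

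Within the effector-like cluster, taken over all its cells, most Rad51b UMIs lay in cells with a UMI of Mki67 or Top2a, genes of cycling cells. The 105 such cells in DHEA had 73 Rad51b UMIs, or 83.9 CPM (65.8 to 106), and the 54 such cells in CTRL had 128 UMIs, or 180 CPM (150 to 214). The effector-like cells without either gene had 7.14 CPM (3.69 to 12.5) in DHEA and 8.61 CPM (3.16 to 18.7) in CTRL. Cells with either gene made up 105 of 520 effector-like cells in DHEA and 54 of 203 in CTRL. Proliferation markers summed to 6722 CPM in the DHEA cells with Mki67 or Top2a and to 7175 CPM in those of CTRL. Cells of the other clusters with neither gene had 7.03 CPM of Rad51b (6.29 to 7.82) in DHEA and 8.90 CPM (8.08 to 9.79) in CTRL. Those with either gene, 401 in DHEA and 300 in CTRL, had 8.92 CPM (5.52 to 13.6) in DHEA and 9.70 CPM (5.84 to 15.2) in CTRL. Outside the effector-like cluster, the intervals with and without these genes thus overlapped. Proliferation markers of those with either gene summed to 476 CPM in DHEA and 425 CPM in CTRL. Erythroid markers summed to 389 CPM over the effector-like cells of both libraries, and to 21.0 CPM in cluster 14, the next highest. At a clustering resolution of 0.5, a separate cluster was led by Gm15915, Ifitm2 and the erythroid marker Car1. Some effector-like cells may thus not be effector CD8 T cells. Their part in the Rad51b and Auts2 levels was not tested.

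Fhit did not follow the split of the effector-like cells. It had 33.3 CPM (22.3 to 47.9) in DHEA and 61.9 CPM (45.0 to 83.1) in CTRL in effector-like cells with Mki67 or Top2a. In those without either gene it had 33.9 CPM (25.7 to 44.0) in DHEA and 139 CPM (113 to 170) in CTRL, so that in CTRL the cells with either gene were the lower ones. Auts2 followed it in CTRL, with 33 UMIs or 46.4 CPM (32.0 to 65.2) in the cells with either gene and 1 UMI in those without. In DHEA it had 10 UMIs or 11.5 CPM (5.51 to 21.1) in the cells with either gene and 7 UMIs or 4.17 CPM (1.68 to 8.59) in those without, and these intervals overlapped.

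In CTRL, Sox5 was highest in the innate-like cluster, led by the Ly49 receptor genes Klra1, Klra6 and Klra7, with 9.12 CPM (5.72 to 13.8) in DHEA and 47.7 CPM (39.5 to 57.1) in CTRL. The log2 ratio was -2.39 (-3.11 to -1.72). Thinned to 1000 UMIs per cell, it was -1.66 and its interval, -3.77 to 0.09, included 0. In DHEA the innate-like level did not stand above that of early-activated cells, 9.19 CPM (3.70 to 18.9), or of effector-like cells, 6.69 CPM (3.82 to 10.9), beyond counting error. Cluster 2 had 4.20 CPM (3.02 to 5.67) in DHEA and 15.4 CPM (12.5 to 18.9) in CTRL. Memory-like cells had 0.36 CPM (6 UMIs) in DHEA and 1.60 CPM (20 UMIs) in CTRL. In cluster 14 Sox5 had no UMI in either library, where the floor of 3 UMIs would be 5.08 CPM in DHEA and 6.35 CPM in CTRL. All 7 clusters with at least 20 Sox5 UMIs were lower in DHEA, and in 4 the interval lay below 0.

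Few cells carried much of the Sox5 signal. In all filtered cells, 107 DHEA and 272 CTRL cells had a Sox5 UMI, and the 10 highest cells held 27.7% of the UMIs in DHEA and 24.7% in CTRL. One innate-like CTRL cell had 50 UMIs, and the highest cell in DHEA had 13. Without the highest cell of each library the log2 ratio over all cells was -1.60 (-1.88 to -1.32), and that in the innate-like Rpl/Rps-rich cells was -2.89 (-4.08 to -1.89), from 9 UMIs in DHEA and 69 in CTRL. Of the innate-like cells, 9 of 447 had a Sox5 UMI in DHEA and 29 of 390 in CTRL. By contrast, the 10 highest cells held 4.18% of Auts2 UMIs in DHEA and 3.83% in CTRL, and 3.08% and 2.08% of Fhit UMIs.

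**Figure D3:**
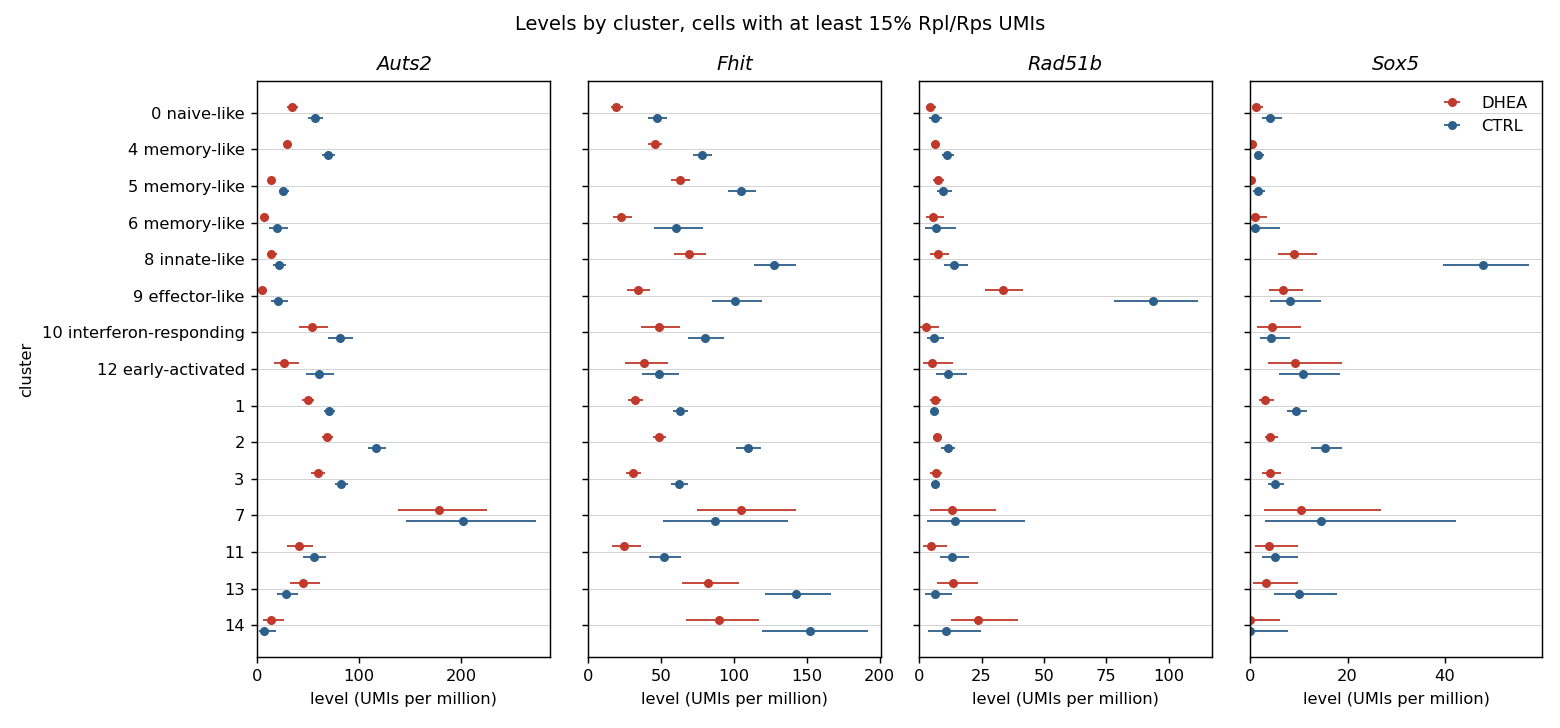
Level of each gene in CPM (horizontal axis) by cluster (vertical axis), in cells with at least 15% Rpl/Rps UMIs, DHEA in red above CTRL in blue, with exact 95% Poisson intervals. Auts2 is highest in cluster 7, Rad51b in effector-like cells and, in CTRL, Sox5 in innate-like cells, while Fhit is spread over all clusters. Cluster 15, with under 100 cells in each library, is left out.

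The mix of clusters differed between the libraries. Naive-like cells made up 19.4% of cells in DHEA and 11.9% in CTRL, and cluster 1 made up 9.89% in DHEA and 19.3% in CTRL. With each cluster given the same weight in both libraries, the log2 ratio was -0.93 for Fhit and -0.65 for Rad51b.

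The DHEA cells were shallower, so each cell was also thinned to 1000 UMIs, which left 11311 DHEA and 9173 CTRL cells and dropped 360 DHEA and 37 CTRL cells. An Auts2 UMI was then seen in 3.63% of DHEA cells and 5.73% of CTRL cells, a difference of -2.10 percentage points (-2.69 to -1.52). For Fhit the shares were 3.85% in DHEA and 7.22% in CTRL, a difference of -3.36 percentage points (-4.01 to -2.73). Sox5 was seen in 0.345% of DHEA cells and 0.807% of CTRL cells, a difference of -0.46 percentage points (-0.69 to -0.26). The intervals of all 3 differences lie below 0. Without thinning, the shares were 10.4% in DHEA and 18.7% in CTRL for Auts2, 13.8% and 25.6% for Fhit, and 0.917% and 2.95% for Sox5.

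Rad51b at matched depth was at the edge of counting error. It was seen in 0.751% (0.601 to 0.928) of DHEA cells and 1.00% (0.809 to 1.23) of CTRL cells, and the interval of the difference, -0.52 to 0.00394 percentage points, included 0. A second random thinning gave 0.743% in DHEA and 0.807% in CTRL, and a log2 ratio of the levels of -0.11 (-0.57 to 0.36) where the first gave -0.51 (-0.94 to -0.09). Without thinning, the shares were 2.71% in DHEA and 3.89% in CTRL. No cell class sure to lack these genes was measured in both libraries, so the share that free RNA gives is not known.

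Within bins of depth, the Rpl/Rps-rich cells of 4000 to 8000 UMIs (5110 DHEA and 5220 CTRL cells) had 45.7 CPM of Auts2 in DHEA and 68.1 CPM in CTRL, a log2 ratio of -0.58 (-0.68 to -0.48). Fhit had 44.9 CPM in DHEA and 75.8 CPM in CTRL there, and Sox5 2.64 CPM in DHEA and 7.38 CPM in CTRL. All 3 genes were lower in DHEA in each of the 4 bins, although for Sox5 under 2000 UMIs the interval included 0. Rad51b was not lower in the 2 lower bins. At 2000 to 4000 UMIs it had 6.83 CPM in DHEA and 6.40 CPM in CTRL, a log2 ratio of 0.09 (-0.49 to 0.69). At 8000 UMIs or more, it had 14.6 CPM in DHEA and 21.3 CPM in CTRL, a log2 ratio of -0.54 (-0.85 to -0.23).

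**Figure D4:**
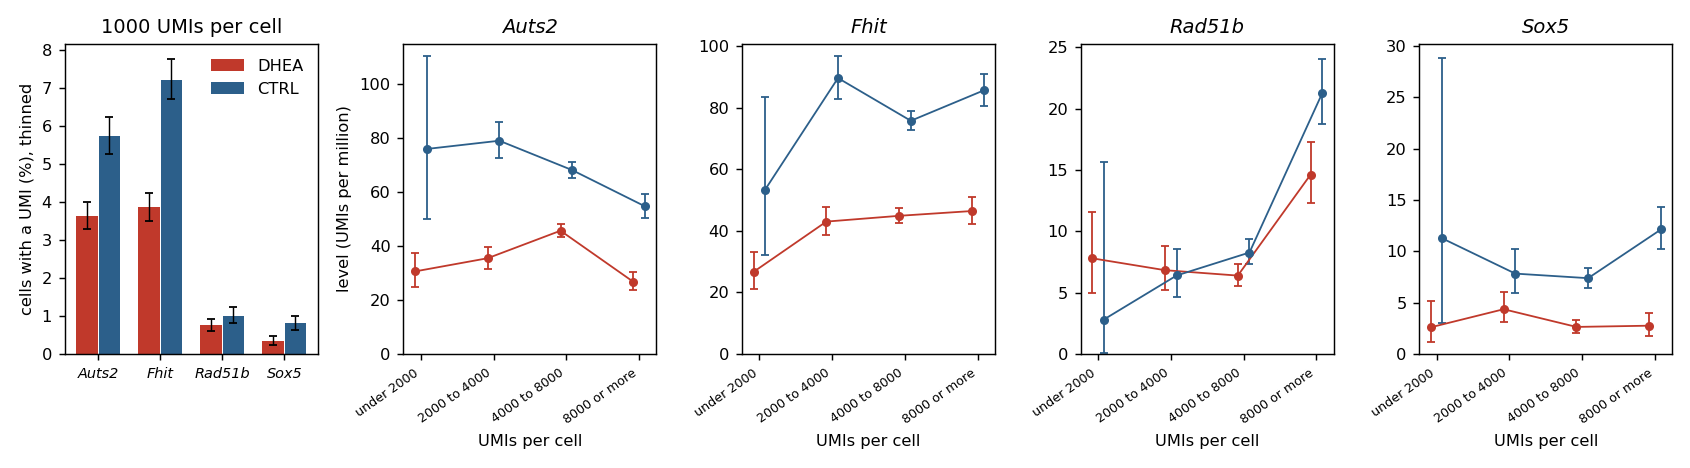
Left, share of cells with a UMI of each gene in percent after thinning every cell to 1000 UMIs, with exact 95% Clopper-Pearson intervals, DHEA in red left of CTRL in blue. Other panels, level in CPM by depth of the cell in UMIs, in cells with at least 15% Rpl/Rps UMIs, with exact 95% Poisson intervals. Auts2, Fhit and Sox5 are lower in DHEA in all bins, and Rad51b in the bins of 4000 UMIs or more.

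After thinning, 859 of 10880 Rpl/Rps-rich DHEA cells (7.90%) and 1210 of 8898 CTRL cells (13.6%) had a UMI of any of the 4 genes, and 24 DHEA and 46 CTRL cells had 2 or more. Of Auts2-positive cells, 3.92% had Fhit in DHEA and 6.43% in CTRL. Of Auts2-negative cells, 3.55% had Fhit in DHEA and 6.88% in CTRL. These shares differed little between cells with and without Auts2.

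Over 30 sums of UMIs by library and cluster, from 15 clusters, the patterns of the members differed from each other, with Pearson correlations of log2(CPM + 1) between -0.13 (Auts2 and Rad51b) and 0.47 (Fhit and Rad51b). The points share libraries and cells, so the values only describe these sums. Most like Auts2 were Usp28 (0.91), Patj, Lef1, Rab3ip and Dusp10. Most like Fhit were Mphosph9 (0.92), Abtb3, Gtdc1, Ccnd3 and Zfp831. Rad51b ran with Lmnb1 (0.84), Pola1, H3c6, Ezh2 and Diaph3, among them a lamin, a DNA polymerase subunit, a histone and a histone methyltransferase. The closest to Sox5 were Cyth3 (0.73), Adk, Kansl1l, Mtrex and Setdb1, at lower correlations.

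Other long genes also tended to be lower in DHEA. Genes with a known span, put in 5 equal groups from short to long, had median log2 ratios of 0.11, 0.07, 0.02, -0.05 and -0.14, and in the longest group 80.1% were below 0. Of the 56 measured genes spanning at least 500 kb, 51 were below 0, with a median of -0.22. Leaving out the 4 members, 47 of 52 were below 0, with a median of -0.21, and 4 were at least 1.5-fold lower. Over all measured genes, the median was 0.00 and 49.9% were below 0. Among the 56, Sox5 was the lowest, Fhit was at place 2, Auts2 at 4 and Rad51b at 13, places that follow from how the members were chosen. The 520 longest measured genes, of 166 kb or more and thus mostly shorter than the members, had a median of -0.17. With it subtracted, the log2 ratio was -0.54 for Auts2, -0.66 for Fhit, -0.26 (-0.44 to -0.07) for Rad51b and -1.46 (-1.73 to -1.19) for Sox5.

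The lowest log2 ratios of other genes of at least 500 kb belonged to Lhfpl3 (-0.81), Adgrv1 (-0.70), Cpq (-0.68) and Macrod2 (-0.62). Cpq, which encodes a secreted peptidase, had 14.7 CPM in DHEA and 23.4 CPM in CTRL. The highest belonged to Kalrn (0.57), Ryr3 (0.24), Magi2 (0.12), Rora (0.05) and Rasgef1b (0.00). Kalrn, which encodes a guanine nucleotide exchange factor, had 7.59 CPM in DHEA and 5.12 CPM in CTRL. The most abundant long genes had log2 ratios below 0, with Arhgap15 at -0.34, Foxp1 at -0.21, Dock2 at -0.21, Inpp4b at -0.26 and Elmo1 at -0.16. Foxp1, a regulator of T cell quiescence, had 972 CPM in DHEA and 1122 CPM in CTRL.

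In Rpl/Rps-rich cells by cluster, the summed level of the long genes other than the members was lower in DHEA in all but cluster 7. There it was 14050 CPM in DHEA and 13879 CPM in CTRL. In naive-like cells it was 3914 CPM in DHEA and 5580 CPM in CTRL. Malat1, a long noncoding RNA kept in the nucleus, had 13230 CPM in DHEA and 16988 CPM in CTRL, a log2 ratio of -0.36. The part of nuclear RNA, of depth or of cell mix in the levels of the 4 genes was not tested.

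**Figure D5:**
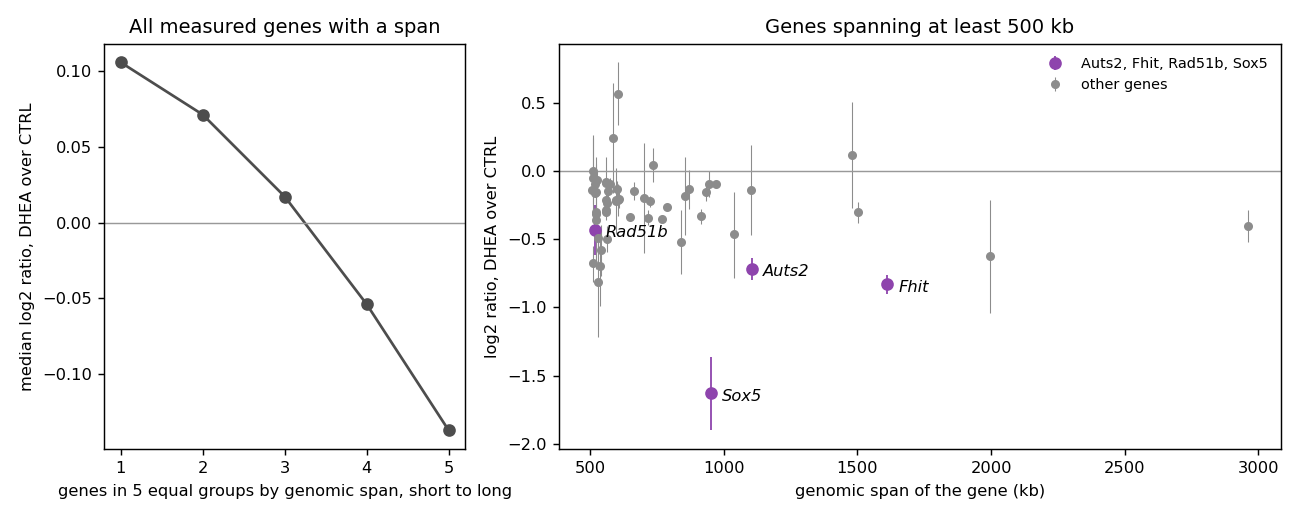
Left, median log2 ratio of DHEA over CTRL (vertical axis) in 5 equal groups of measured genes by genomic span, short to long. Right, log2 ratio (vertical axis) with exact 95% interval against genomic span in kb (horizontal axis) for the 56 measured genes of at least 500 kb, the 4 members in purple and the other 52 in grey. The medians run between 0.11 and -0.14, and Sox5, Fhit and Auts2 lie among the 4 lowest long genes.

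Lists of relatives and pathway genes were chosen with earlier results in view and are described by counts and medians alone. Beside them, 49.9% of all measured genes were below 0, with a median of 0.00. At least 1.5-fold lower were 1.43% of them, and at least 1.5-fold higher 1.74%. Of the AUTS2 family and variant Polycomb genes, 12 were measured, 3 of them higher and 9 lower in DHEA, with a median log2 ratio of -0.07 and none past 1.5-fold. The Auts2 paralogs Fbrsl1 (31.7 CPM in DHEA and 40.5 CPM in CTRL, -0.36) and Fbrs (26.2 CPM in DHEA and 29.3 CPM in CTRL, -0.16) were lower, as was Rybp (-0.35), a subunit of variant Polycomb complexes. Csnk2b, the regulatory subunit of casein kinase 2, was at 0.21.

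The 7 measured genes of the HIT family and related hydrolases had log2 ratios above 0, with a median of 0.12 and none past 1.5-fold. For 3 of them, Hint2, Hint3 and Nudt2, the interval lay above 0. In the shortest of the 5 groups by span, the median was 0.11 and 26.0% of genes were below 0. The part of gene length in the values of these 7 genes was not tested. Nudt2, which splits diadenosine tetraphosphate, had 8.03 CPM in DHEA and 5.78 CPM in CTRL (0.47), and Hint2, a mitochondrial HIT protein, 24.1 CPM in DHEA and 19.4 CPM in CTRL (0.32). Hint1 had 245 CPM in DHEA and 241 CPM in CTRL (0.02, -0.01 to 0.06).

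Of 13 genes of homologous recombination, 10 were measured, 4 higher and 6 lower, with a median of -0.10. The paralogs Rad51c (0.27, -0.09 to 0.64) and Rad51d (0.11, -0.03 to 0.26) had intervals that included 0. Brca1 was the lowest measured, with 3.47 CPM in DHEA and 5.02 CPM in CTRL (-0.53, -0.81 to -0.25). Of the SOX family, Sox4 alone was measured, with 11.6 CPM in DHEA and 13.7 CPM in CTRL (-0.24). The SOXD paralogs had few UMIs, Sox6 7 in DHEA and 10 in CTRL, and Sox13 17 in DHEA and 3 in CTRL.

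Of 20 other genes of common fragile sites, which like Fhit are mostly very long, 9 were measured, 2 higher and 7 lower, with a median of -0.22 and 1 at least 1.5-fold lower, Macrod2. Wwox, an oxidoreductase gene that is lost in tumours like Fhit, had 91.5 CPM in DHEA and 115 CPM in CTRL (-0.33). Immp2l had 69.7 CPM in DHEA and 77.3 CPM in CTRL (-0.15). A list headed nuclear-retained transcripts mixed noncoding RNAs such as Malat1 (-0.36) with protein-coding genes such as Gphn. Of this list, 9 were measured, 4 higher and 5 lower, with a median of -0.02. That median does not stand for nuclear-retained RNA alone. Neat1, the scaffold RNA of paraspeckles, had 77.7 CPM in DHEA and 69.7 CPM in CTRL (0.16), and Gphn was at -0.08.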

How the data were processed

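Splenic CD8 T cells were measured in 1 DHEA and 1 CTRL library. The deposited files hold UMI counts per gene and cell as whole numbers. Per the submitters' processing notes, the authors used Cell Ranger 8.0.1, Seurat 4.3.0 and the mm39 build. The members and lists were chosen with earlier results of these data known. Cells were filtered as above, and 51 barcodes shared by the libraries were kept. UMIs were summed over cells and divided by their total. Total UMIs of the filtered cells were 52444920 in DHEA and 51221411 in CTRL. Intervals of the log2 ratios over all filtered cells are widest for Sox5 and Rad51b, which had the fewest UMIs of the 4 genes. Intervals are exact Poisson, Clopper-Pearson or binomial-split ones. No test was made.

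Clusters came from scanpy 1.11.5 and leidenalg 0.10.2 (2000 variable genes without the members, 30 components, 15 neighbours, resolution 1, each library scaled apart). Scrublet marked 2 DHEA and 1 CTRL cells as doublets, too few to be a working call, so none were removed. TMM factors came from edgeR 4.0.16. Genes counted as measured had at least 200 UMIs over both libraries. The floor was 3 UMIs per library. Spans and exons came from GENCODE M21 (GRCm38), matched by gene ID for 95.0% of genes, and served for lengths alone. Named genes were the members, measured genes of the lists, paralogs, the 5 most abundant, 5 lowest and 5 highest genes of at least 500 kb, and the 5 genes most like each member. Some genes that this rule names are not reported here. A few leading genes of clusters and marker genes were named beside these. Alternatives covered limits on cells and genes, scaling, thinning, clustering, cluster mix and single high cells.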

Additional observations from a re-analysis of the deposited data

Results flagged for a closer look

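In cluster 13, led by Hdac9, Alcam and Myb, Auts2 went the other way than in the cells as a whole. Over all filtered cells of the cluster it had 48 UMIs or 52.2 CPM in DHEA and 31 UMIs or 27.7 CPM in CTRL, a log2 ratio of DHEA over CTRL of 0.91 (0.23 to 1.61). Over all clusters the ratio was -0.72. With Rpl/Rps-poor cells left out, the ratio in the cluster was 0.69 (-0.03 to 1.41). Thinned to 1000 UMIs per cell, the cells of the cluster had 1 Auts2 UMI in DHEA and 4 in CTRL, too few for a direction. The difference between this cluster and the others was not tested, since each group has 1 library. Fhit in the same cluster had a log2 ratio of -0.80 in Rpl/Rps-rich cells.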

How the results depend on the processing

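Of 96 alternative log2 ratios of DHEA over CTRL, 94 were below 0. The genes were chosen from this contrast, so the count carries no further weight. Over all filtered cells, 12 alternatives per gene lay between -0.77 and -0.54 for Auts2, -0.93 and -0.66 for Fhit, -0.65 and -0.26 for Rad51b, and -1.68 and -1.23 for Sox5. Outside these ranges, a second thinning gave -0.80 for Auts2 and -0.11 for Rad51b, and thinning to 2000 UMIs -0.80 for Auts2. The cause of each shift below was not tested. With the median of the 520 longest measured genes subtracted, the ratio was -0.54 for Auts2 and -0.66 for Fhit. With the same cluster mix, it was -0.93 for Fhit and -0.65 for Rad51b. With each thinned cell counted once, it was -0.90 for Fhit and -1.23 for Sox5. In thinned Rpl/Rps-rich cells, it was -0.95 for Fhit and -1.18 for Sox5. In Rpl/Rps-poor cells, Auts2 reversed to 0.52 with a mitochondrial limit of 5%, and Rad51b was at 0.72 with an Rpl/Rps limit of 10%. The log2 ratio of Rpl/Rps-poor over Rpl/Rps-rich cells moved with scaling and limit but stayed above 0, except for Sox5 in DHEA, at -0.61 with TMM factors, -0.15 without mt-, Rpl and Rps UMIs and -0.70 thinned. For Auts2 in DHEA it was 0.82 with TMM factors, 1.28 without mt-, Rpl and Rps UMIs in the total, 1.35 thinned, 2.12 with a limit of 10% and 1.11 with a limit of 20%. For Auts2 in CTRL it was 0.62 with TMM factors, 1.03 without those UMIs, 0.54 with a mitochondrial limit of 5%, 1.87 with a limit of 10% and 1.12 with a limit of 20%. For Fhit it was 1.06 in DHEA and 0.92 in CTRL with TMM factors, 1.52 in DHEA and 1.32 in CTRL without those UMIs, and 1.39 in DHEA and 1.45 in CTRL with a limit of 20%. For Rad51b it was 0.63 in DHEA and 0.64 in CTRL with TMM factors, and in CTRL 2.22 thinned and 0.77 with a limit of 10%. For Sox5 in CTRL it was 1.65 with TMM factors and 2.98 with a limit of 20%. At resolution 0.5, which gave fewer clusters in all, 8 clusters were lower in DHEA for Auts2 and 8 for Fhit. Thinned, 9 clusters were lower for Auts2, 4 for Rad51b and 2 for Sox5, as fewer had 20 UMIs. The difference in cells with a UMI was -3.99 percentage points for Auts2 and -5.32 for Fhit at 2000 UMIs. Without thinning it was -8.24 for Auts2, -11.9 for Fhit, -1.18 for Rad51b and -2.04 for Sox5. Genes at least 1.5-fold lower numbered 306 with at least 100 UMIs, 38 with at least 1000 and 72 after thinning, and genes at least 1.5-fold higher 283, 67 and 121. No paired analysis was possible because each group has 1 library. Depth limits Sox5 and Rad51b most.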

Other observations

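Barcodes removed by the cell filter, 457 in DHEA and 285 in CTRL, also held the 4 genes. Auts2 had 163 CPM in DHEA and 223 CPM in CTRL there, and Fhit 132 CPM in DHEA and 208 CPM in CTRL. Rad51b had 62.5 CPM in DHEA and 50.3 CPM in CTRL, a log2 ratio of 0.31 (-0.50 to 1.16). Sox5 had 17 UMIs in DHEA and 5 in CTRL, a log2 ratio of 1.30 (-0.20 to 3.09). For the last pair of genes the direction was opposite to that in the filtered cells, with intervals that included 0.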
